A study of Mus musculus with 12 samples.

Results

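The enzymes of glycolysis and of the tricarboxylic acid (TCA) cycle were examined in a ribosome pull-down experiment on cultured dorsal root ganglion (DRG) neurons of the mouse. The 37 genes were chosen by name, 17 for glycolysis and lactate dehydrogenase and 20 for the pyruvate dehydrogenase complex, the TCA cycle and the malate-aspartate shuttle. Of the 37, 34 were listed in both deposited count tables (16 and 18), which hold 9112 genes for the libraries labelled Cre+ and 14177 for those labelled Cre-. Idh2 and Suclg2 were listed only for the libraries labelled Cre-, and Eno1 in neither. All 34 shared genes passed the filter on low values, a mean FPKM above 1, and all were tested.

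In the RiboTag mouse, Cre recombinase switches the ribosomal protein Rpl22 to a form with an HA tag, so that an HA antibody pulls down ribosomes with their mRNAs from the cells with Cre activity. All samples came from male Rpl22HA/HA mice, labelled as 3 to 6 months old. The mice carried either the Runx3-Cre driver (labelled Cre+), which is active in proprioceptive neurons, or no Cre (labelled Cre-), the controls for background. Neurons from all ganglia of 5 mice made up each sample, and were lysed after 24 h in serum-containing medium. Each label had 3 HA pull-downs and 3 inputs, the latter from 10% of the lysate before the pull-down, giving 12 libraries. The labels do not say whether the 3 samples of a group were cultured on separate occasions, so p-values measure the spread between these samples.

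Total counts over the listed genes lay between 8886308 and 18633365 in a library. The pull-downs labelled Cre+ were the least alike, with correlations of log expression between pairs from 0.711 to 0.846 across all genes and from 0.877 to 0.937 across the enzymes. Pull-down 1 stood apart, at 0.749 and 0.711 across all genes with the others, which correlated at 0.846. Among the inputs labelled Cre+, input 1 did so, at 0.922 and 0.923 against 0.978. Pull-down 1 also had 255 normalized counts of the endothelial marker Pecam1 and 103 of the macrophage marker Cd68, against 20.2 and 17.8, and 13.8 and 4.27, in the other pull-downs labelled Cre+. The endothelial markers Kdr and Tek were likewise highest in pull-down 1, whereas Cdh5 was not, at 61.1 against 59.9 and 69.6. Among the inputs, Cd68 was also highest in input 1 under both labels, at 67.1 (Cre+) and 114 (Cre-). The pairs of pull-downs labelled Cre- gave 0.949 to 0.972 across all genes and 0.989 to 0.994 across the enzymes. Runx3, whose promoter drives Cre, had 4.28, 2.39 and 5.55 normalized counts in the inputs and 22.8, 2.07 and 11.1 in the pull-downs labelled Cre+, where it did not pass the test (1.55, SE 0.87, FDR = 0.309). In the libraries labelled Cre- it had 4.7, 1.9 and 2.88 in the inputs and 20.8, 36 and 51.4 in the pull-downs, a log2 fold change of 3.52 (SE 0.43, FDR = 0.000236). The driver gene was thus called enriched in the libraries labelled Cre- and not in those labelled Cre+. For Runx3 the difference between both was not called (FDR = 0.302). Of the proprioceptor markers tested, 6 of 8 were called higher labelled Cre-, and 1 of 6 labelled Cre+. Only Ntrk3 was called higher under both. The difference between the labels was called lower for 2 of 6 proprioceptor markers and higher for 0. Every direction below refers to the labels as deposited. Rpl22 itself, the gene with the tag, had normalized counts of 98, 44.4 and 51.8 in the inputs and 43.4, 26.2 and 35.6 in the pull-downs labelled Cre+ and 60.3, 52.7 and 47.9 and 26.3, 18 and 17.6 labelled Cre-, with every pull-down below every input in both. The 10 neuronal markers checked, among them Tubb3, Uchl1 and Nefl, were all detected in every group, and 3 markers of red blood cells were not listed.

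Glycolysis splits glucose into pyruvate in the cytosol, with a small yield of ATP, and lactate dehydrogenase converts pyruvate and lactate into each other. The pyruvate dehydrogenase complex in mitochondria turns pyruvate into acetyl-CoA, which citrate synthase feeds into the TCA cycle. The malate-aspartate shuttle, with a cytosolic and a mitochondrial form each of malate dehydrogenase and aspartate aminotransferase, carries the reducing power of cytosolic NADH into mitochondria. Several steps have isoenzymes that differ between tissues, such as Aldoc and Eno2, the forms of aldolase and enolase known from nervous tissue.

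Levels were compared between genes per kb of transcript, as normalized counts (CPM after TMM scaling) divided by transcript length. Aldoa, the most widely expressed aldolase, was the most abundant of the enzymes in the inputs under both labels, at 480.3 ± 76.2 (Cre+) and 419 ± 45.2 (Cre-) normalized counts per kb (SD, n = 3). Got1, the cytosolic aspartate aminotransferase, came next at 217 ± 37.5 and 218 ± 31.6, and its range did not overlap with that of Aldoa. Ldha, the lactate dehydrogenase subunit of fermenting tissues, followed at 179 ± 54.7 and 162 ± 33, with a range that overlapped with that of Got1. Ldha, Mdh2, Eno2 and Pkm took the ranks 3 to 6 under both labels, and their ranges overlapped. Eno2 stood at 145 ± 17.1 and Aldoc at 21.1 ± 4.81 in the inputs labelled Cre-, so the aldolase known from nervous tissue was far less abundant than Aldoa. Hk1, the hexokinase of brain, exceeded Hk2, at 24.7 ± 6.02 against 2.45 ± 0.305. Gapdh, which is known as one of the most abundant mRNAs, had only 6.69 ± 0.2. Of its 50-base stretches, 82.5% occur in 222 other gene models, and the authors counted uniquely mapped reads, and the values of Gapdh are therefore uncertain.

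In the libraries labelled Cre+, the called enzymes were all lower in the pull-down than in the input. In glycolysis 5 genes and in the TCA cycle and shuttle 1 gene fell, at an FDR below 0.1 and a 2-fold change in edgeR's quasi-likelihood test, and 0 of 34 were higher. The called genes were Aldoa, Tpi1, Pkm, Ldha and Ldhb in glycolysis, and Mdh1, the cytosolic malate dehydrogenase. Across all 8947 genes tested, 2.19% were called lower and 4.72% higher. The log2 fold change was negative for 30 of the 34 enzymes, with medians of -1.10 over 16 glycolysis genes and -0.85 over 18 TCA cycle genes, against 0.08 over all genes. The normalized counts of every pull-down lay below those of every input for 9 of 16 and 12 of 18, against 17.9% of all genes. None of the 34 was higher at an unadjusted p below 0.05 and 20 were lower, where 2109 of the 8947 genes had such a p in either direction. DESeq2 called 11 lower and 0 higher, and 1671 of all genes. Pull-down and input came from the same lysate, and thus from the same cells. Which cell types a lower value in the pull-down came from cannot be told in such bulk samples. In the comparisons of both labels below, fewer cells of a type and less RNA per cell cannot be told apart.

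All 6 of these calls were lost (0 called) without input 1, input 2 or input 3 labelled Cre+, where 12, 12 and 11 enzymes were lower at an unadjusted p below 0.05, as 1146, 1412 and 1348 of all genes were in either direction. These fits called 7, 74 and 4 of all 8947 genes, against 618 with all 6 libraries, so that calls were lost across all genes and not for the enzymes alone. In these fits the enzymes' median log2 fold change was -0.74, -0.99 and -0.91, against -0.89 with all 6 libraries. Of the 34 enzymes, 29, 31 and 30 were negative, against 30. Without pull-down 1, 10 enzymes and 1343 genes were called, and without pull-down 3, 3 enzymes and 436 genes. Removing the trend with transcript length also left 0 of the 34 called, in a fit that called 0 of 8898 genes in either direction. There 11 enzymes were lower at an unadjusted p below 0.05, where 1232 of the 8898 genes had such a p in either direction.

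The libraries labelled Cre- showed the opposite sign. In glycolysis 4 genes, Aldoc, Eno2, Pkm and Ldhb, and 3 of the TCA cycle and shuttle, Ogdh, Mdh1 and Got1, rose in the pull-down, and 0 of 34 fell. Of the 11526 genes tested, 6.01% were called higher and 5.83% lower. Positive log2 fold changes were found for 32 of the 34, with medians of 0.45 (glycolysis) and 0.46 (TCA cycle) against -0.04 over all genes. All pull-downs exceeded all inputs for 12 of 16 and 14 of 18 enzymes, against 18.2% of all genes. Without a fold limit, 17 enzymes passed an FDR of 0.1 as higher, where 13% of all genes did, and 1 as lower, Idh1, where 11.1% did. At an unadjusted p below 0.05, 19 were higher and Idh1 alone was lower, where 3576 of the 11526 genes had such a p in either direction. DESeq2 called 7 higher and 0 lower, and 1481 of all genes.

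The call of Ogdh was lost without pull-down 1 or input 3 labelled Cre-, and the other 6 held without each of the 6 libraries in turn. With the trend on transcript length removed, Ogdh was also lost and Idh3g was gained, in a fit that called 1092 of 11460 genes. Scaling by library size alone, which moved the median of all genes to -0.27, left 3 called higher and added 1 called lower, Idh1. Got1, Pkm, Ogdh and Mdh1 lost their call there, while calls over all genes rose from 1365 to 1667. Relative to that median of all genes, the enzymes' median stood 0.49 higher, as under TMM scaling.

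**Figure D1:**
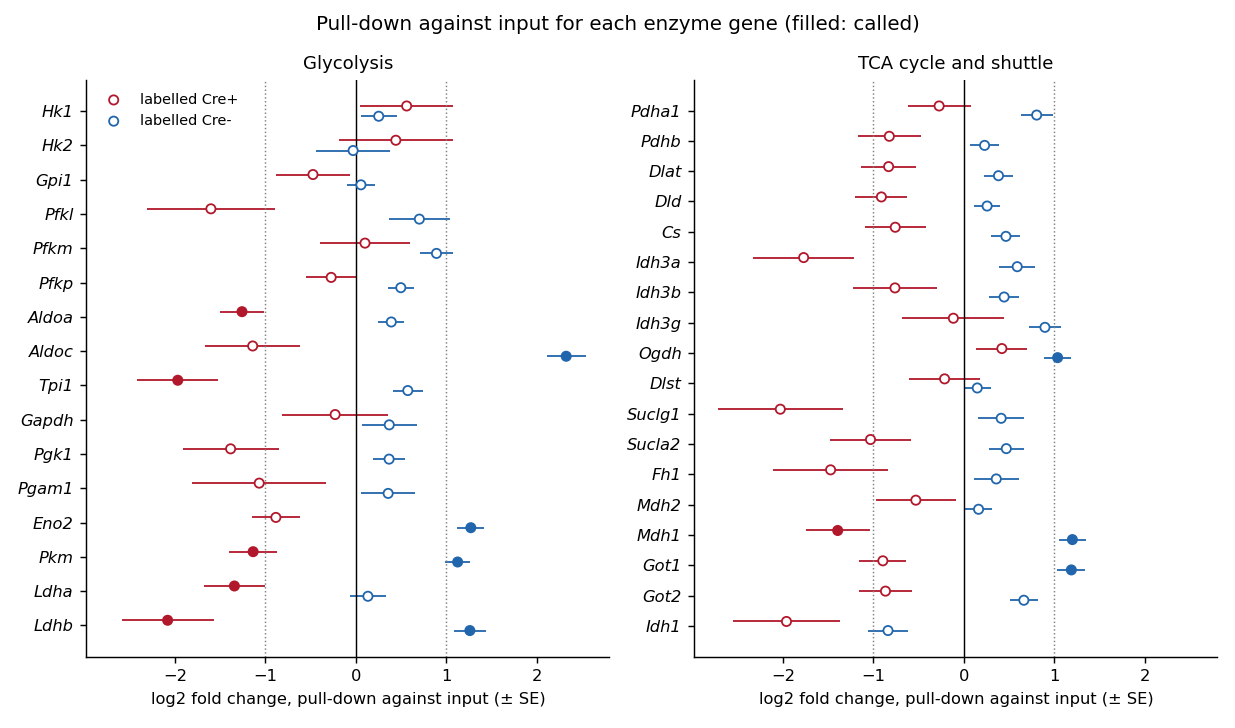
Log2 fold change of pull-down against input (x axis, ± standard error) for the 34 enzymes tested, in the order of the pathway, in the libraries labelled Cre+ (red) and Cre- (blue), with filled points for genes called at an FDR below 0.1 and a 2-fold change and dotted lines at that change. Red points lie to the left of 0 for 30 genes and blue points to the right for 32.

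The opposite signs were tested as a difference between both enrichments in a fit of all 12 libraries. The enrichment under the Cre+ label was called lower than that under the Cre- label for 7 glycolysis genes, Aldoa, Aldoc, Tpi1, Eno2, Pkm, Ldha and Ldhb. It was also called lower for 7 of the TCA cycle and shuttle, Dlat, Dld, Idh3a, Suclg1, Mdh1, Got1 and Got2, and higher for 0. Of the 9006 genes in this fit, 2% were called lower and 2.3% higher. The difference was negative for 32 of 34, with Hk1 and Hk2 the exceptions, and its median was -1.53 for glycolysis and -1.18 for the TCA cycle, against 0.13 over all genes. None was higher at an unadjusted p below 0.05 and 23 were lower, where 1754 of the 9006 genes had such a p in either direction. DESeq2 called 20 lower and 0 higher, and 1042 of all genes.

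Some cell type markers also differed in this fit. Of 10 neuronal markers 9 were negative (median -0.80), and Uchl1 (-1.96) and Snap25 (-1.76) were called lower. Of 6 proprioceptor markers 4 were negative (median -1.79), with Etv1 (-2.41) and Spp1 (-3.60) called lower. Of 7 markers of Schwann cells and satellite glia 6 were positive (median 0.84), and S100b (-1.65) was called lower. All 4 endothelial markers were positive (median 2.26), with Tek called higher. Of 4 fibroblast and 2 macrophage markers, 3 and 2 were positive, and 0 were called. The part of these cell types in the enzymes' difference was not tested.

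The differences of 9 genes, those of Aldoa, Aldoc, Tpi1, Eno2, Pkm, Ldhb, Mdh1, Got1 and Got2, were called without each of the 12 libraries in turn. Without each input labelled Cre- or pull-down 3 labelled Cre-, 9 were called in all, and without pull-down 1 labelled Cre+ 23 were. The same fits called 98, 43, 62 and 51 of the 9006 genes (without inputs 1, 2 and 3 and pull-down 3 labelled Cre-) and 1233 (without pull-down 1 labelled Cre+), against 387 with all libraries. In these fits the enzymes' count went in the same direction as the count over all genes, but not in proportion to it. With the trend on transcript length removed, 11 were called lower and 0 higher, with Ldha, Dld and Suclg1 lost, where 1.56% and 1.14% of all genes were.

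Pull-downs and inputs of both labels were also compared directly in the same fit. Between the pull-downs, 19 enzymes were called lower under the Cre+ label, 9 of glycolysis and 10 of the TCA cycle and shuttle, where 7.12% of all genes were. Pfkl, Pgk1, Cs, Sucla2 and Fh1 were called here although their difference in enrichment was not. Of the markers in the same comparison, 4 of 10 neuronal ones were called lower (9 negative, median -0.89), as were 2 of 6 proprioceptor ones (median -1.18) and S100b of 7 glial ones (median 0.87). Higher were 3 of 4 endothelial ones (median 2.30) and 1 of 4 fibroblast ones, Col1a1, where 10.8% of all genes were. Of the endothelial ones, Pecam1, Kdr and Tek were highest in pull-down 1 labelled Cre+. Between the inputs, 0 of 34 enzymes and 0 of 9006 genes were called by edgeR's quasi-likelihood test, 0 enzymes and 20 genes had an unadjusted p below 0.05, and the enzymes' log2 differences ran from -0.32 to 0.40.

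In the upper part of glycolysis, the called genes were the aldolases, which cleave fructose bisphosphate, and Tpi1. Aldoa (chromosome 7, 126795234 to 126800994 of GRCm38) had 871, 637 and 724 normalized counts in the inputs and 313, 332 and 289 in the pull-downs labelled Cre+. Every pull-down was at less than any input, and the log2 fold change was -1.26 (SE 0.24, FDR = 0.0401), the smallest FDR of the enzymes under this label. Under the Cre- label it had 569.9, 704 and 672 and 892, 803 and 859, with every pull-down above every input by a log2 change of 0.39 (SE 0.14, FDR = 0.0785), short of 2-fold. The difference was -1.62 (SE 0.25, FDR = 0.00845). Of the 50-base stretches of Aldoa, 13.5% occur in 6 other gene models.

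Aldoc (chromosome 11, 78323073 to 78327781) had 85.3, 51.5 and 39.9 in the inputs and 24.2, 39.1 and 16.9 in the pull-downs labelled Cre+, where its log2 change of -1.14 did not pass (FDR = 0.225). Labelled Cre-, it rose from 71.3, 60.6 and 44.7 to 238, 355 and 291, with no overlap. That log2 change of 2.33 (SE 0.22, FDR = 4.72e-05) was the largest of the enzymes under this label. The difference of -3.43 (SE 0.51, FDR = 0.00741) was the largest as well.

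Tpi1, triose phosphate isomerase (chromosome 6, 124810586 to 124814158), had 69.1, 71.2 and 83.1 in the inputs and 17.2, 14.5 and 25.4 in the pull-downs labelled Cre+, a log2 change of -1.97 (SE 0.45, FDR = 0.0607). The inputs labelled Cre- had 79.1, 66.5 and 70.9 and the pull-downs 111, 109.9 and 101, a log2 change of 0.57 (SE 0.17, FDR = 0.0349) without overlap. The difference was -2.51 (SE 0.39, FDR = 0.00964). Tpi1 was thus clearly separated from its inputs under both labels, in opposite directions.

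The other genes of the upper pathway were not called under either label. Hk1 and Hk2, which phosphorylate glucose, had log2 fold changes of 0.56 and 0.44 labelled Cre+ and 0.25 and -0.03 labelled Cre-, with overlapping groups throughout. The pull-downs labelled Cre+ varied widely for Hk1, at 286, 56.2 and 134. Gpi1, the phosphoglucose isomerase, had -0.47 and 0.057. Of the phosphofructokinases, which set the pace of glycolysis, Pfkm and Pfkp passed the FDR but not the fold limit labelled Cre-, at 0.89 (SE 0.18, FDR = 0.00583) and 0.50 (SE 0.14, FDR = 0.0337). Pfkl had 8.82, 16.3 and 7.96 in the inputs and 3.77, 5.49 and 1.62 in the pull-downs labelled Cre+, low values that did not overlap (log2 change -1.60, SE 0.71, FDR = 0.21). Gapdh, Pgk1 and Pgam1, the next enzymes down, had -0.23, -1.38 and -1.07 labelled Cre+ and 0.37, 0.37 and 0.36 labelled Cre-. Of the 50-base stretches of Pgk1 and Pgam1, 68.0% and 41.5% occur in other gene models, and the counts of both are uncertain too.

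At the end of glycolysis, Eno2, the neuronal enolase (chromosome 6, 124760053 to 124769673), had 531, 357 and 417 in the inputs and 264, 242 and 202 in the pull-downs labelled Cre+. These did not overlap, but the log2 change of -0.88 (SE 0.26, FDR = 0.101) missed both limits. Labelled Cre-, it had 364, 398 and 458 and 936, 1062 and 946, a rise of 1.27 (SE 0.15, FDR = 0.000167). The difference of -2.12 (SE 0.28, FDR = 0.00258) passed.

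Pkm, pyruvate kinase (chromosome 9, 59656576 to 59679372), was called in both directions. It had 446, 359 and 353 in the inputs and 146, 195 and 187 in the pull-downs labelled Cre+, a log2 change of -1.13 (SE 0.26, FDR = 0.0609). In the libraries labelled Cre- it had 347, 367 and 335 and 719, 766 and 804, a log2 change of 1.13 (SE 0.14, FDR = 0.000237). The inputs of both labels were at similar levels, whereas the pull-downs stood on opposite sides of them, and the difference of -2.23 (SE 0.26, FDR = 0.00122) had the smallest FDR of the enzymes. Of its 50-base stretches 34.4% occur in 8 other gene models.

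Both lactate dehydrogenase subunits fell in the pull-downs labelled Cre+. Ldha (chromosome 7, 46842274 to 46855627) had 438, 288 and 249.7 in the inputs and 86.5, 154 and 145 in the pull-downs, a log2 change of -1.34 (SE 0.34, FDR = 0.0729). Ldhb (chromosome 6, 142490249 to 142507957), the subunit typical of oxidative tissues, had 252, 117 and 120.3 and 50.7, 47.3 and 17.7, a log2 change of -2.08 (SE 0.51, FDR = 0.0664) and the lowest of the glycolysis genes. Input 1 stood above the other inputs for both genes, and neither gene's groups overlapped. Under the Cre- label, Ldha had 354, 296 and 234 in the inputs and 404, 302 and 263 in the pull-downs, which overlapped (log2 change 0.13, SE 0.20, FDR = 0.694). Ldhb rose from 159, 129.9 and 108 to 311, 308 and 331, by 1.26 (SE 0.17, FDR = 0.000476). The differences were -1.44 (SE 0.41, FDR = 0.0892) for Ldha, lost in 9 of 12 fits without 1 library, and -3.31 (SE 0.54, FDR = 0.012) for Ldhb, called in all 12. Of the 50-base stretches of Ldha and Ldhb, 16.65% and 27.0% occur in other gene models.

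**Figure D2:**
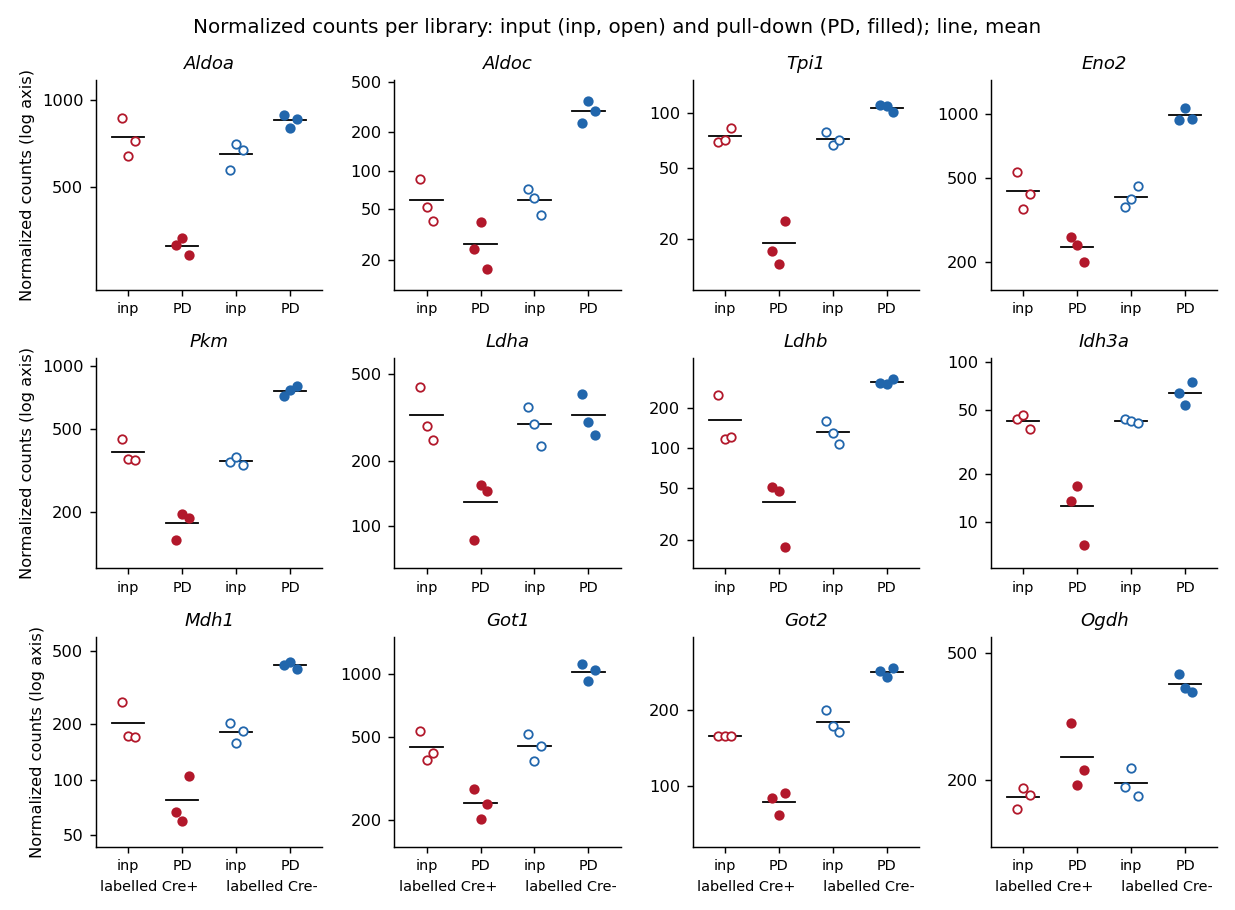
Normalized counts (y axis, log scale, one point per library, line at the mean) of 12 enzymes in the inputs (inp, open) and pull-downs (PD, filled) labelled Cre+ (red) and Cre- (blue). The inputs of both labels sit at similar levels for each gene, and the filled red points lie below and the filled blue points above them for Pkm, Ldhb, Mdh1 and Got1.

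The pyruvate dehydrogenase complex had no called gene within either label. Its 4 genes were Pdha1 and Pdhb, which encode the decarboxylating subunits, Dlat, the acetyl transferase, and Dld, the dihydrolipoamide dehydrogenase that the complex shares with the 2-oxoglutarate dehydrogenase complex. All 4 log2 fold changes were negative labelled Cre+, from -0.91 to -0.27, and positive labelled Cre-, from 0.23 to 0.81. Dlat had 291, 222 and 232 in the inputs and 99.8, 144 and 174 in the pull-downs labelled Cre+, and 329.7, 239 and 259 and 329.8, 373 and 377 labelled Cre-. Dld had 208, 174 and 202 and 86.1, 114 and 110.3 labelled Cre+, and 226, 204 and 223 and 265, 242 and 274 labelled Cre-. For both genes the pull-downs labelled Cre+ lay below all inputs, while the pull-downs labelled Cre- lay at or above the highest input. The differences of -1.18 (SE 0.33, FDR = 0.0863) and -1.13 (SE 0.28, FDR = 0.066) were called, with 3 and 4 of 12 fits without 1 library keeping the call. Pdha1 passed the FDR but not the fold limit labelled Cre- (0.81, SE 0.18, FDR = 0.00824).

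Of the 12 cycle genes, 10 were tested. Ogdh, the first subunit of the 2-oxoglutarate dehydrogenase complex (chromosome 11, 6291597 to 6359094), went against the rest labelled Cre+, as the only enzyme with every pull-down above every input. It had 162, 189 and 179 in the inputs and 302, 193 and 214 in the pull-downs, a log2 change of 0.42 (SE 0.28, FDR = 0.389) that was not called, where 15.5% of all genes lay above in the same way. Labelled Cre- it had 189, 218 and 178 and 430.5, 389.7 and 379, a rise of 1.04 (SE 0.15, FDR = 0.000723), and the difference of -0.59 did not pass (FDR = 0.272). Dlst, the transferase of the same complex, had -0.21 and 0.15.

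Isocitrate dehydrogenase 3 is built from the subunits Idh3a, Idh3b and Idh3g. Idh3a, the catalytic one (chromosome 9, 54586511 to 54604662), had 44.2, 46.8 and 38.3 in the inputs and 13.7, 16.9 and 7.27 in the pull-downs labelled Cre+, far apart but not called (-1.77, SE 0.56, FDR = 0.109). In the libraries labelled Cre- it had 44, 42.6 and 41.7 and 63.9, 54 and 75.3, and the difference of -2.33 (SE 0.49, FDR = 0.0382) passed. That call was lost without each input labelled Cre- and without pull-down 3 labelled Cre-. Idh3b and Idh3g overlapped between inputs and pull-downs labelled Cre+ (log2 changes -0.76 and -0.12), with pull-down 1 at 122 for Idh3g against 34.4 and 41.1. Labelled Cre-, both lay above all inputs, at 0.45 (SE 0.17, FDR = 0.0928) and 0.90 (SE 0.17, FDR = 0.00437).

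Suclg1, the alpha subunit of succinate-CoA ligase (chromosome 6, 73248505 to 73276907), was among the less abundant enzymes. It had 37, 16.5 and 21.2 in the inputs and 9.21, 5.85 and 3.23 in the pull-downs labelled Cre+ (-2.03, SE 0.69, FDR = 0.126), and 21.3, 20.4 and 19.6 and 30.9, 29 and 21.7 labelled Cre-. The difference was -2.41 (SE 0.66, FDR = 0.0819), kept in 3 of 12 fits without 1 library. Its ATP-forming partner Sucla2 had 112, 60.3 and 71.8 and 24.9, 46.6 and 48 labelled Cre+, and 113, 84.7 and 86.5 and 109, 130.3 and 154 labelled Cre-, of which only the first pair did not overlap. Cs, citrate synthase, Fh1, fumarase, and Mdh2, the mitochondrial malate dehydrogenase, had log2 changes of -0.76, -1.47 and -0.53 labelled Cre+ and 0.47, 0.36 and 0.16 labelled Cre-. Only Cs labelled Cre- passed the FDR (0.0661), below 2-fold. Mdh2 had 246, 191 and 208 in the inputs and 247, 62.5 and 138 in the pull-downs labelled Cre+, where pull-down 1 stood level with the highest input and the others below all inputs, and 236, 222 and 211 and 257, 238 and 255 labelled Cre-, every pull-down above every input.

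Idh2, the mitochondrial NADP-dependent isocitrate dehydrogenase, and Suclg2, the GTP-forming succinate-CoA ligase subunit, were listed only in the table of the libraries labelled Cre- and fell below the FPKM filter. Idh2 had 0.196, 1.65 and 0 normalized counts in the inputs and 1.45, 1.08 and 1.49 in the pull-downs. Suclg2 had 3.14, 3.88 and 2.8 and 1.51, 1.69 and 0.67, every pull-down below every input, at low counts. For Eno1, 72.2% of the 50-base stretches occur in 9 other gene models.

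In the malate-aspartate shuttle, Mdh1 (chromosome 11, 21556692 to 21571934) had 265, 171 and 170.3 in the inputs and 66.9, 59.6 and 104 in the pull-downs labelled Cre+, a log2 change of -1.39 (SE 0.35, FDR = 0.0729). Labelled Cre-, it rose from 203, 158 and 184 to 421, 434 and 398, by 1.20 (SE 0.15, FDR = 0.000292). No other gene of the TCA cycle and shuttle was called in both directions, and the difference was -2.56 (SE 0.36, FDR = 0.00405).

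Got1 (chromosome 19, 43499752 to 43524605) had 534, 388 and 418 in the inputs and 280.0, 203 and 238 in the pull-downs labelled Cre+, a log2 change of -0.89 (SE 0.26, FDR = 0.0985) that passed the FDR and not the fold limit. Labelled Cre- it rose from 514, 383 and 450.4 to 1107, 919 and 1045, by 1.19 (SE 0.16, FDR = 0.000352). Got2, the mitochondrial form (chromosome 8, 95864133 to 95888401), had 159, 158 and 158 and 89.5, 77.1 and 94.2 labelled Cre+. In the libraries labelled Cre- it had 200.3, 173 and 164 and 287, 271 and 294. No group of Got1 or Got2 overlapped with the other fraction of its label, and the differences were -2.05 (SE 0.28, FDR = 0.00329) and -1.50 (SE 0.27, FDR = 0.0184). Of the 50-base stretches of Got2, 47.2% occur in 3 other gene models.

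Idh1, the cytosolic NADP-dependent isocitrate dehydrogenase, was the only enzyme whose pull-downs lay below all inputs under both labels. It had 45.3, 50.3 and 45.4 in the inputs and 5.55, 12.9 and 17.8 in the pull-downs labelled Cre+ (-1.96, SE 0.59, FDR = 0.101). Labelled Cre- it had 49.2, 38.6 and 43.1 and 21.4, 25.7 and 26.1 (-0.84, SE 0.22, FDR = 0.023), past the FDR and short of 2-fold. The difference of -1.08 did not pass (FDR = 0.312).

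Isoenzymes were also compared as the ratio of 2 genes within a library, which does not depend on how libraries are scaled. Of 10 pairs, Eno2 to Eno1 and Idh1 to Idh2 gave no ratio, for lack of Eno1 and for a count of 0 in Idh2. The p-values of the other pairs were adjusted over 15 comparisons, and with 3 libraries against 3 a two-sided exact permutation test cannot go below p = 0.1, so none could pass. The ratio of Aldoc to Aldoa was 0.125, 0.0861 and 0.0666 in the inputs and 0.267, 0.442 and 0.339 in the pull-downs labelled Cre-, a log2 difference of 1.93 (exact p = 0.1, adjusted p = 0.25). Labelled Cre+, it was 0.0979, 0.0808 and 0.0552 and 0.0773, 0.118 and 0.0584, with overlap. In the pull-downs labelled Cre-, the share of Aldoc was thus above that of every other library.

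The ratio of Ldhb to Ldha was 0.451, 0.439 and 0.46 in the inputs and 0.771, 1.02 and 1.26 in the pull-downs labelled Cre- (log2 difference 1.15), and 0.575, 0.406 and 0.482 and 0.587, 0.308 and 0.122 labelled Cre+ (-0.78). Mdh1 to Mdh2 gave 0.861, 0.711 and 0.872 and 1.64, 1.82 and 1.56 labelled Cre- (1.04), and 1.08, 0.896 and 0.818 and 0.271, 0.953 and 0.756 labelled Cre+ (-0.67). Inputs and pull-downs labelled Cre- did not overlap for either pair, whereas those labelled Cre+ did. Labelled Cre+, the shift of Ldhb to Ldha was -0.18 without pull-down 3 and -1.32 without pull-down 1, and that of Mdh1 to Mdh2 was -0.12 without pull-down 1 and -1.03 without pull-down 2. Got1 to Got2 shifted less, from 2.56, 2.21 and 2.75 to 3.86, 3.4 and 3.56 labelled Cre- (0.53), and by -0.023 labelled Cre+. Each of these 4 log2 differences labelled Cre- had exact p = 0.1 and adjusted p = 0.25. The ratios of Hk1 to Hk2 and Pfkm to Pfkl overlapped between fractions under both labels. Pfkp to Pfkl was 32, 21.1 and 39.4 in the inputs and 89.6, 44.1 and 123 in the pull-downs labelled Cre+ (1.39), without overlap, and overlapped labelled Cre- (-0.26). Sucla2 to Suclg2 went from 35.9, 21.8 and 30.8 to 72.1, 77 and 230.1 labelled Cre- (1.91).

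**Figure D3:**
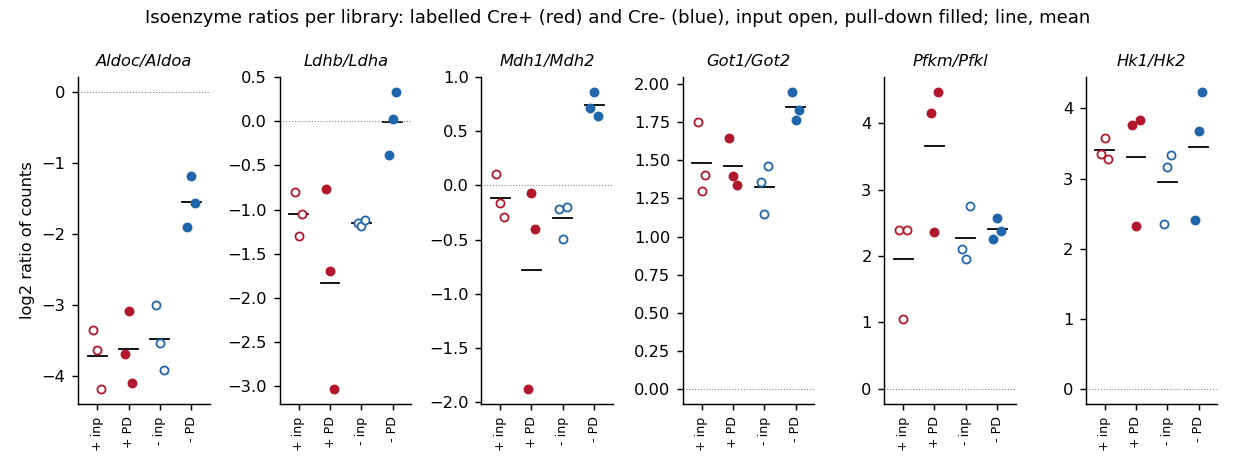
Log2 ratio of the counts of 2 isoenzyme genes in the same library (y axis, one point per library, line at the mean) for 6 pairs, in inputs (inp, open) and pull-downs (PD, filled) labelled Cre+ (+, red) and Cre- (-, blue). The filled blue points stand above the open blue points for Aldoc/Aldoa, Ldhb/Ldha, Mdh1/Mdh2 and Got1/Got2, and no pair but these was separated among the 6 shown.

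The enzymes' summed share of all listed counts moved the same way. The 16 glycolysis genes took 0.308 to 0.385% of the counts in the inputs and 0.119 to 0.141% in the pull-downs labelled Cre+. Labelled Cre-, they took 0.283 to 0.300% and 0.409 to 0.442%. The 18 TCA cycle and shuttle genes took 0.295 to 0.377% and 0.143 to 0.157% labelled Cre+, and 0.290 to 0.338% and 0.383 to 0.444% labelled Cre-. Neither set of pull-downs overlapped with its inputs, also when the 10 genes with most counts were left out of each library. Map1b alone took 6.63 to 13.3% of the counts of the pull-downs labelled Cre+ and 3.78 to 7.73% of those labelled Cre-.

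Transcript length moved with the enrichment. Over all genes with a known length, the log2 fold change correlated with it at a Spearman coefficient of 0.538 labelled Cre+ and 0.358 labelled Cre-, given as a description across genes of the same libraries. The enzymes' transcripts had a median length of 2481 nt, against 3614 nt for the genes tested labelled Cre+. In the shortest quartile of those genes, up to 2394 nt, the median log2 fold change was -0.73 and 6.15% were called lower. The 16 enzymes in it had a median of -1.16, and 5 were called lower. In the next quartile, up to 3613 nt, all genes had a median of -0.15 and 12 enzymes one of -0.87. Labelled Cre-, the shortest quartile had a median of -0.37, whereas its 12 enzymes had 0.38, and the next quartile had -0.12 and its 16 enzymes 0.63. With the trend on length removed in each library, the enzymes' median was -0.49 labelled Cre+ (24 of 34 negative), 0.66 labelled Cre- (2 negative) and -1.03 for the difference (32 negative). The part of length in the calls labelled Cre+ was not otherwise tested.

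**Figure D4:**
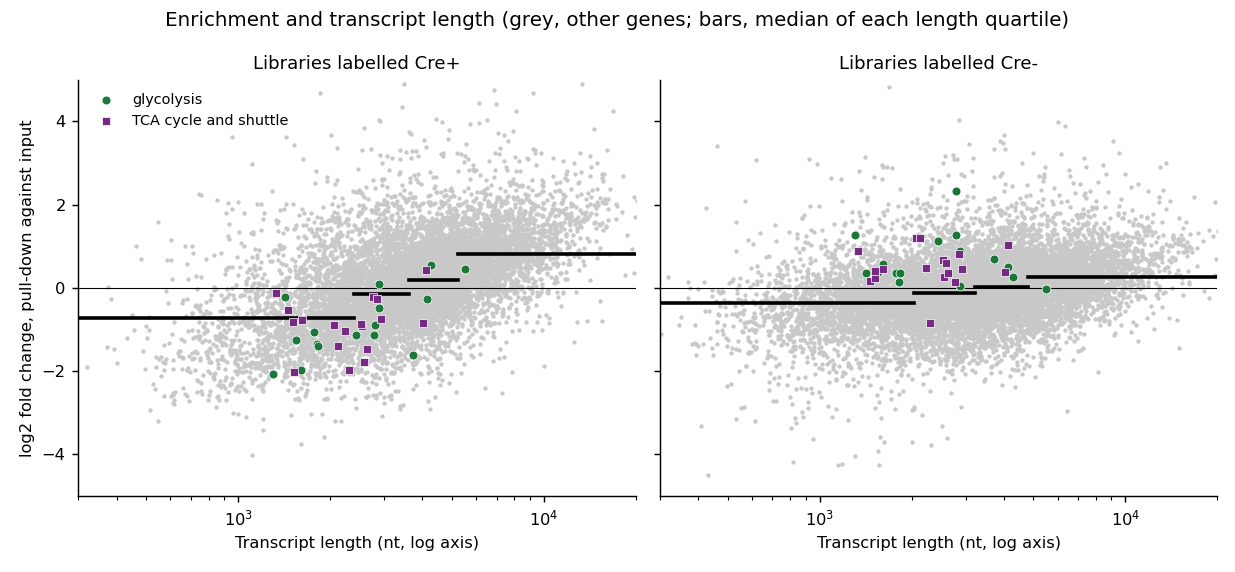
Log2 fold change of pull-down against input (y axis) and transcript length (x axis, log scale, nt) in the libraries labelled Cre+ and Cre-, for the enzymes of glycolysis (green) and of the TCA cycle and shuttle (purple) and all other genes (grey), with bars at the median of each quartile of length. Genes beyond the axes are not drawn. In the 2 shortest quartiles the enzymes had medians of -1.16 and -0.87 labelled Cre+, below the bars at -0.73 and -0.15, and 0.38 and 0.63 labelled Cre-, above the bars at -0.37 and -0.12.

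Cell type markers were read in the same libraries. The summed normalized counts of the 10 neuronal markers were 20807 to 27383 in the inputs and 22333 to 24357 in the pull-downs labelled Cre+, which overlapped. Labelled Cre-, they were 23981 to 28859 and 48956 to 56441, without overlap. Most of these sums came from Nefl, Nefm and Snap25, and the single markers were mixed. Labelled Cre+, 2 of the 10 were called lower and 0 higher, Tubb3 (-1.19, SE 0.24, FDR = 0.0448) and Uchl1 (-1.85, SE 0.32, FDR = 0.0342), in the direction of the enzymes. There 3 of the 10, Tubb3, Uchl1 and Snap25, had every pull-down below every input, and 2, Nefm and Nefh, above. Labelled Cre-, 3 were called higher, Nefm (1.29), Nefh (1.35) and Snap25 (1.17), and 0 lower, whereas Tubb3, Prph and Avil had negative log2 changes (-0.35, -0.23 and -0.089) and 6 of the 10 overlapped. The sums of the listed proprioceptor markers were higher in the pull-downs under both labels, at 305 to 418 and 683 to 882 labelled Cre+ (6 of 8 listed) and 394 to 425 and 1454 to 1782 labelled Cre- (8 of 8). Labelled Cre+, most of that sum came from Heg1 and Ntrk3. Of the 6 tested there 1 was called higher, Ntrk3 (2.19, SE 0.30, FDR = 0.025), 4 overlapped between fractions, and Spp1 had a log2 change of -0.95. Labelled Cre-, 6 of 8 were called higher, Runx3, Ntrk3, Pvalb, Etv1, Spp1 and Whrn. The markers of Schwann cells and satellite glia summed to 2425 to 3718 in the inputs and 1661 to 2272 in the pull-downs labelled Cre+ (7 of 10 listed), and 2797 to 4310.1 and 1275 to 1693 labelled Cre- (10 of 10). Most of these sums came from Pmp22. Of the glial markers, 0 of 7 tested were called labelled Cre+, and 3 of 9 were called lower labelled Cre-, Pmp22, Fabp7 and Apoe, whereas S100b had every pull-down above every input there. Sox10 and Cnp overlapped under both labels. Endothelial markers (4 of 5) summed to 47.8 to 83.2 and 98.8 to 427 labelled Cre+, and 60.4 to 89.7 and 16.2 to 115 labelled Cre-. All 4 were positive labelled Cre+, against the direction of the enzymes, and 1 was called higher, Tek (3.98, SE 1.09, FDR = 0.0855), while 0 of 3 tested were called labelled Cre-. Fibroblast (4 and 6 of 6) and macrophage (2 and 4 of 6) sums were below 127 in every library, and 1 of these was called, Col1a1, lower labelled Cre- (-1.34, SE 0.39, FDR = 0.0347). No listed marker was at 0 throughout a group. Their part in the enzymes' values was not tested.

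The rest of the pathway was read from 50 further genes for transporters, other isoenzymes, regulators and the remaining cycle enzymes. Of these, 28 were tested labelled Cre+, with 0 called higher and 1 lower, Sdhd, a membrane anchor of succinate dehydrogenase (-2.01, SE 0.53, FDR = 0.0805), where 2.19% of all genes were lower. Of 36 tested labelled Cre-, 3 rose, among them Pdk3, a kinase that switches off pyruvate dehydrogenase (1.49, SE 0.24, FDR = 0.00158), and Slc25a12, an aspartate-glutamate carrier of the shuttle (1.03, SE 0.14, FDR = 0.000541). Eno3, the muscle enolase (-2.74, SE 0.72, FDR = 0.0218), and Pck2, the mitochondrial phosphoenolpyruvate carboxykinase (-1.17, SE 0.25, FDR = 0.00704), fell. With 6.01% of all genes called higher and 5.83% lower, these counts of 3 and 2 lie near the background. The medians of these lists were -0.14 labelled Cre+ and 0.06 labelled Cre-, closer to those of all genes than the medians of the enzymes were. The difference was called lower for 3 of 29, Pdk3 (-1.96), Sdhd (-2.17) and Slc25a11, the oxoglutarate carrier of the shuttle (-2.21), where 2% of all genes were.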

How the data were processed

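RNA was sequenced from 3 HA pull-downs and 3 inputs for each genotype label, grouped by the genotype and RNA fraction in the labels. Columns of the Cre+ table were assigned as a group, because their names without punctuation also resemble titles of Cre- samples and only the labels' pointer to the table tells them apart, and their library numbers are names from the columns. The authors mapped reads with STAR (mm10) and counted the uniquely mapped ones per gene with HTSeq and refSeq gene models, in one deposited table for each genotype. The deposited counts are whole numbers and not normalized. The authors also give the mean FPKM over the libraries of a table, which was used only as a filter. The submitters' processing notes name CASAVA 1.8.2 and edgeR. The authors' own fold changes, p-values and FDR, and 18 other columns of single samples (normalized counts, ratios), were not used.

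Genes with a mean FPKM above 1 (8947 labelled Cre+, 11526 labelled Cre-) were tested with edgeR 4.0.16 in R 4.3.3 (TMM, glmQLFit with robust estimation, glmQLFTest) on the 6 libraries of a label, without a replicate block. The robust setting was chosen after the data were seen, since it gives the calls of an earlier processing of these files, and the fit without it is an alternative. The difference, and pull-downs and inputs between labels, came from a fit of all 12 libraries on 9006 genes in both tables. P-values were adjusted over all genes tested by Benjamini-Hochberg (FDR), and genes were called at an FDR below 0.1 and a 2-fold change. The standard error (SE) of a log2 fold change was obtained from the change and the root of its F statistic. The alternatives were DESeq2 1.42.0, edgeR's exact test, at least 10 counts in 3 libraries, no filter, upper-quartile and library-size scaling, all 12 libraries in one fit, a replicate block (labelled Cre-), leaving out each library, no fold limit and an FDR of 0.05. Offsets by transcript length and by GC content were added after the data were seen.

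The enzymes and the other lists were chosen with earlier results of these data known. Values per library are given for the enzymes called in either label or the difference and for isoenzymes of these, and a further pathway gene is named where called, except for 1 that is not reported here. Coordinates came from RefSeq (GRCm38.p6), and lengths, GC content and shared 50-base stretches from GENCODE M21, which gave a length for 99.2% of genes. The depth of 8886308 to 18633365 counts covers counting error only, since no molecular identifiers are named in the sources. On simulated counts with 200 changed genes, 50% were recovered labelled Cre+ (8947 genes), 87% labelled Cre- (11526) and 50% for the difference (9006). These shares are not broken down by fold change, and recovery of genes near the 2-fold limit was not tested separately. Figures were drawn with matplotlib 3.10.9.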

Additional observations from a re-analysis of the deposited data

Results flagged for a closer look

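The genes below had a log2 enrichment that differed between the libraries labelled Cre+ and Cre-, by edgeR's quasi-likelihood test of the difference in the fit of all 12 libraries (FDR below 0.1 and 2-fold). In glycolysis, the difference, Cre+ minus Cre-, was -1.62 for Aldoa, -3.43 for Aldoc, -2.51 for Tpi1, -2.12 for Eno2, -2.23 for Pkm, -1.44 for Ldha and -3.31 for Ldhb. In the pyruvate dehydrogenase complex, TCA cycle and shuttle, it was -1.18 for Dlat, -1.13 for Dld, -2.33 for Idh3a, -2.41 for Suclg1, -2.56 for Mdh1, -2.05 for Got1 and -1.50 for Got2. Among the further pathway genes it was -1.96 for Pdk3, -2.17 for Sdhd and -2.21 for Slc25a11. All 17 were negative, as were the differences of 18 further enzymes that did not pass, where the median over all genes was 0.13. No test for a single outlying value was run in groups of 3 libraries, and the libraries that stood apart in their correlations, pull-down 1 and input 1 labelled Cre+ (0.711 to 0.749 against 0.846, and 0.922 to 0.923 against 0.978), were kept in all groups.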

How the results depend on the processing

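Calls labelled Cre+ depended most on the processing. Against 6 enzymes called lower, upper-quartile scaling gave 10, scaling by library size 17, DESeq2 11, all 12 libraries in one fit 14, an FDR of 0.05 gave 1, and the offset by transcript length 0. Leaving out 1 library gave 0 to 10, and 0 were called higher under any alternative run. Labelled Cre-, against 7 higher and 0 lower, scaling by library size gave 3 higher and 1 lower, and no fold limit gave 17 higher and 1 lower. For the difference, against 14 lower, leaving out 1 library gave 9 to 23 (23 without Cre+ pull-down 1, 9 without each Cre- input or Cre- pull-down 3), and 0 were higher. Over all genes, calls labelled Cre+ numbered 618 of 8947 against 515 with upper-quartile and 891 with library-size scaling. DESeq2 gave 1671 and the exact test 1279. With all 12 libraries in one fit, 2209 of 9006 genes were called, with the length offset 0, and with 1 library left out 4 to 1343. Labelled Cre-, calls numbered 1365 of 11526 genes, against 1667 with library-size scaling and 443 of 9006 genes with all 12 libraries in one fit. For the difference they numbered 387 against 1042 with DESeq2, 242 with the length offset and 43 to 1414 with 1 library left out, and between pull-downs 1611 against 695 to 2500 in the same way. The cause of these shifts was not tested. The median log2 value of the enzymes relative to all genes was -0.96 labelled Cre+ under TMM and -0.97 under upper-quartile and library-size scaling. Under TMM it was 0.49 labelled Cre- and -1.41 for the difference. With the length offset it was -0.53, 0.71 and -1.13. The fit without robust estimation called 6, 7 and 14, as did the main one. Of the isoenzyme ratios, the log2 shifts near 0 changed sign when 1 library was left out. The shift of Hk1/Hk2 ran from -0.36 to 0.39, Aldoc/Aldoa from -0.18 to 0.33 and Got1/Got2 from -0.12 to 0.11 (Cre+), and Pfkm/Pfkl from -0.0257 to 0.37 and Pfkp/Pfkl from -0.47 to 0.12 (Cre-). With the sign kept, Ldhb/Ldha ran from -1.32 to -0.18 and Mdh1/Mdh2 from -1.03 to -0.12 (Cre+), and Hk1/Hk2 from 0.10 to 1.01 (Cre-). Inputs came from the same lysates as the pull-downs, but the main fit was set without a replicate block and did not use this pairing. Same-numbered pull-downs and inputs labelled Cre- correlated in their deviations at 0.067, 0.028 and 0.12. These correlations were low, but every library correlated best with its own number. A replicate block labelled Cre- called 7 enzymes higher and 0 lower, and 1496 of all genes, against 1365 without it. No block was fitted for the label Cre+ or the difference, since the columns labelled Cre+ were matched to a group only and the numbers in their names are not tied to numbered samples. Low counts limit Gapdh, Pgam1, Pfkl and Hk2, at under 25 normalized counts in every library.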
